A study of Mus musculus with 6 samples.

Results

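The Kruppel-like factor (KLF) genes examined here were Klf2, Klf3, Klf4, Klf6, Klf7, Klf9, Klf10, Klf11, Klf13 and Klf16, which are 10 of the 17 genes with a Klf symbol and 10 of the 55335 gene rows of the count table. They were found by matching each Ensembl identifier, without its version, to the gene names of GENCODE M21. Their levels were compared between C57BL/6 bone marrow-derived macrophages (BMDMs) given phosphate-buffered saline (PBS), the control, and BMDMs given lipopolysaccharide (LPS), a bacterial cell wall component that macrophages sense. Each group had 3 libraries of total RNA collected after 1 h, and all cells had been grown for 6 d from femur and tibia marrow with L929-conditioned medium. No transgene or deletion was involved, and the mice of the study were males of 7 to 10 weeks. The LPS dose and whether libraries came from separate animals were not given in the sources used here, so p-values measure the spread between these libraries, which may be technical.

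KLF proteins bind GC-rich and CACCC sequences through 3 zinc fingers at their C terminus, and their N termini recruit different cofactors. Klf2, Klf4, Klf6 and Klf7 belong to the branch that is mostly described as activating and that recruits acetyltransferases, Klf3 binds the corepressor CtBP, and Klf9, Klf10, Klf11, Klf13 and Klf16 belong to the branch that binds the SIN3 corepressor. In myeloid and endothelial cells, Klf2 and Klf4 are known as restraints on NF-kB-driven inflammation that are induced through the kinase ERK5 and MEF2 factors, and Klf6 is known to take part in inflammatory gene activation in macrophages.

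The RefSeq start regions of the 4 genes that changed most with LPS are shown first, since the results turn on them, with the region of Klf2 for its MEF2 motif. Each is the 250 bases before the RefSeq start site on GRCm38.p6, written along the gene's strand. Capitals mark the GC box GGGCGG, or its reverse complement, in the first 4, and the MEF2 motif in Klf2. The regions lie at chr1:64121390-64121639 (minus strand) for Klf7, chr4:55532476-55532725 (minus strand) for Klf4, chr13:5861239-5861488 (plus strand) for Klf6, chr12:24651121-24651370 (plus strand) for Klf11 and chr8:72318812-72319061 (plus strand) for Klf2.
Klf7: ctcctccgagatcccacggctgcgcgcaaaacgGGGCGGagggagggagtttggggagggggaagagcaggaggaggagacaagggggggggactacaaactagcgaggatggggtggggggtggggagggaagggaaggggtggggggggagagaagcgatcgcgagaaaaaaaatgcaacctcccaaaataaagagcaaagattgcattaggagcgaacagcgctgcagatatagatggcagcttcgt
Klf4: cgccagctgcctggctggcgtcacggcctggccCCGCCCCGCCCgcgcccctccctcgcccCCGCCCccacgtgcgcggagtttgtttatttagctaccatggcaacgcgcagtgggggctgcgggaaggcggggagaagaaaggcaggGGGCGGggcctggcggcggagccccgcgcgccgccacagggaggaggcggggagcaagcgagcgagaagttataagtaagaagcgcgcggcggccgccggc
Klf6: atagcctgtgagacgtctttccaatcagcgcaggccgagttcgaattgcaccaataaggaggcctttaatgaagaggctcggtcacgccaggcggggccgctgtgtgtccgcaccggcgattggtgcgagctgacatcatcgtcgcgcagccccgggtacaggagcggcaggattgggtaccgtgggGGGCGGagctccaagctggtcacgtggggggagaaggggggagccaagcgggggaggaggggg
Klf11: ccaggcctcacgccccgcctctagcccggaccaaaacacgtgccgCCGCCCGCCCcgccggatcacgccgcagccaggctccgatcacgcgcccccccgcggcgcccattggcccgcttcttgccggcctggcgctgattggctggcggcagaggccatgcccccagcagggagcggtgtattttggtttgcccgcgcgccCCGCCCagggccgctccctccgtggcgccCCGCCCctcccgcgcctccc
Klf2: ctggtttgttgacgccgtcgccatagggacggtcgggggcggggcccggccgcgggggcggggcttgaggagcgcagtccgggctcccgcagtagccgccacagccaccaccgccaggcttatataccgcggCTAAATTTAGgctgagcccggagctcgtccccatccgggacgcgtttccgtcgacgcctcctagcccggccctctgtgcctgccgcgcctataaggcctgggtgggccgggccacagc

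A RefSeq start region, from 250 bases before to 50 bases after the start, was found for 8 of the 10 genes, and motifs were searched on both strands in it. The GC box GGGCGG was present in 7 of the 8, all but Klf9, against 35.7% of 32851 start regions of all genes. The region of Klf3 held 6 matches, those of Klf4 and Klf11 held 4 each, of which a pair overlaps in each gene, and those of Klf6 and Klf7 held 1 each. GC boxes stood in the regions of Klf7, Klf4 and Klf6, which rose, and of Klf11, which fell, while Klf9, which also fell, had none. CACCC was present in 5 of the 8 against 57.5% of all regions, and TGACG, the core of the cAMP response element, in 5 of the 8 against 20.8%. The full element TGACGTCA, which contains TGACG, was in none of the 8 (1.79% of all regions). The AP-1 motif TGANTCA was in Klf9 only (7.81% of all regions), from 89 to 83 bases before its start. The MEF2 motif was in Klf2 only (3.19% of all regions), from 118 to 109 bases before its start. The NF-kB and CArG motifs were in none of the 8, against 8.46% and 1.63% of all regions. A match describes the letters and shows no binding, and these windows leave out enhancers.

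Library totals ranged from 37787611 to 41516330 counts, and the KLF genes had between 119 and 48634 counts in every library. Levels are given as normalized CPM, CPM being counts scaled to a common library size, after adjustment by edgeR's TMM factors, which were 1.15 in every PBS library and between 0.864 and 0.872 in LPS libraries. Scaling by library size alone moved the median log2 fold change of all tested genes from -0.01 to -0.42, and upper quartile scaling moved it to -0.16. Tnf, the LPS-induced cytokine gene of the study, rose from 20.2 ± 1.19 to 2302 ± 49.8 CPM (SD, n = 3 each). The macrophage markers Adgre1 (2329 ± 78.0 CPM in PBS) and Csf1r (3263 ± 78.9 CPM) were abundant, while Hbb-bs and Alas2 of red cells, Gp1bb of platelets and Ly6g of neutrophils were at or under 3 counts in every library. The whole list of 6 neutrophil markers, 1 of them at or under 3 counts, summed to between 33.6 and 35.8 CPM in PBS and between 44.3 and 46.2 CPM in LPS libraries. Summed dendritic cell markers ranged from 3.15 to 4.01 CPM in PBS and from 9.62 to 10.6 CPM in LPS libraries, with 4 of 4 past both criteria, and Cdh5 of endothelium rose from 0.734 ± 0.133 to 2.63 ± 0.249 CPM (SD, n = 3 each). The part of these cell types in the KLF results was not tested, and in bulk RNA fewer cells of a type and less RNA per cell cannot be told apart.

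Among the 10 genes, all 4 of the activating branch and the CtBP-binding Klf3 rose after 1 h of LPS. Of the 5 that belong to the SIN3-binding branch, 4 fell. Klf13, the other 1, rose with TMM and fell with scaling by library size alone. Past an adjusted p of 0.05 and a log2 fold change beyond 1 in size (together, both criteria), 3 of the 10 genes rose (Klf7, Klf4 and Klf6) and 1 fell (Klf11). Over all 15687 tested genes, the same criteria were met by 10.5% as rises and 10.4% as falls. Of all genes past the criteria 50.4% were rises, and 29.0% with scaling by library size alone. With the adjusted p alone, 6 of the 10 KLF genes rose and 4 fell, against 32.9% and 34.9% of all tested genes. The median log2 fold change was 0.42 for the 10 KLF genes and -0.01 for all tested genes. The 10 genes were chosen with earlier results of these data known, so these contrasts are only a description. The LPS and PBS libraries did not overlap for any of the 10. How many of all tested genes separated in this way was not counted, so it cannot be called particular to the KLF genes. Summed over the 10 genes, the level was 667, 677 and 702 CPM in PBS and 1930, 1857 and 1889 CPM in LPS libraries, most of it from Klf6.

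**Figure D1:**
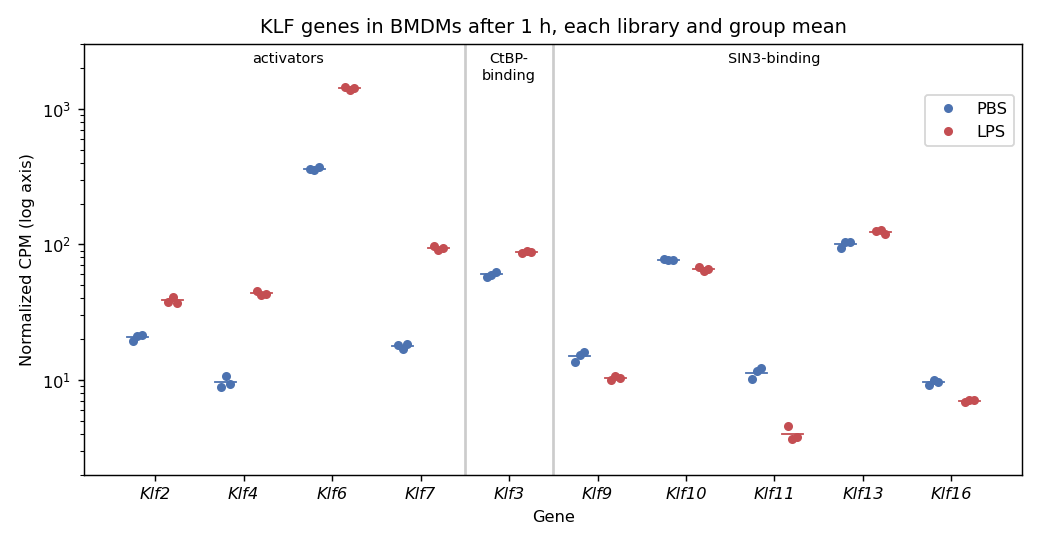
Normalized CPM (log axis) of each KLF gene in each library, with PBS libraries in blue and LPS libraries in red, short lines at the group means, and genes ordered by branch. The LPS points of Klf7 sit between 90.3 and 97.7 CPM, far above the PBS points between 17.0 and 18.4, and those of Klf11 sit below their PBS points.

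**Figure D2:**
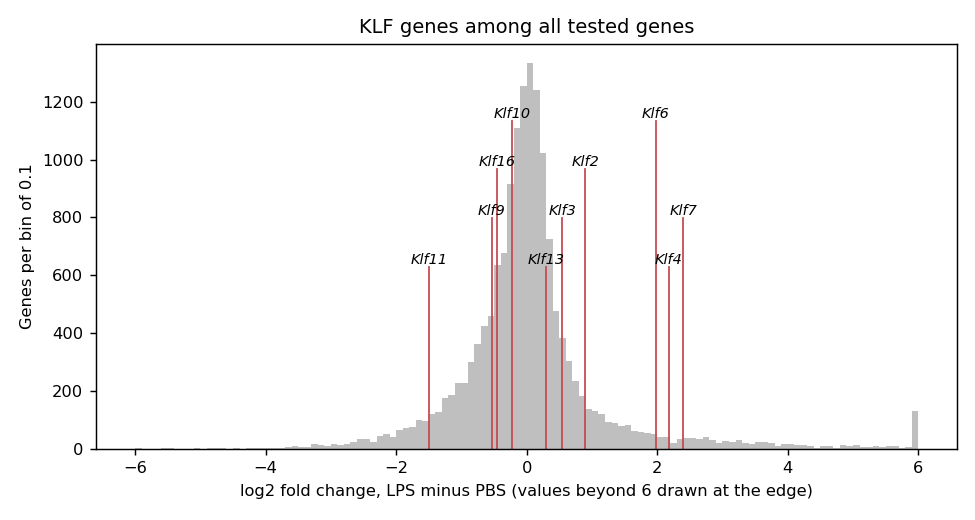
Histogram of the log2 fold change, LPS minus PBS, of all 15687 tested genes (grey, genes per bin of 0.1, values beyond 6 in size drawn at 6), with a red line at the value of each KLF gene. Klf7, Klf4 and Klf6 lie in the right tail, Klf11 lies in the left tail at -1.50, and Klf10 and Klf13 lie within the central peak.

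Klf7, a broadly expressed factor best known from neuronal development, had the largest rise of the 10. Its counts were 862, 770 and 850 in PBS and 3278, 2946 and 3205 in LPS libraries, or 17.9 ± 0.722 and 94.0 ± 3.71 normalized CPM (SD, n = 3 each). The lowest LPS library, at 90.3 CPM, was far above the highest PBS library, at 18.4 CPM. The log2 fold change was 2.40 (standard error, SE, 0.05; adjusted p = 2.01e-18), the 95.6th percentile of all tested genes. The gene is on chromosome 1 (64029447 to 64122282, minus strand). The lincRNA gene Gm26649, which shares 3196 exonic bp with Klf7 on the other strand, has no row in the count table and could not be examined. The strand setting of the counting is not given, so whether its reads entered the Klf7 counts is not known.

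Klf4, one of the reprogramming factors and a regulator of monocyte differentiation, had 421, 486 and 430 counts in PBS and 1516, 1384 and 1460 in LPS libraries. These correspond to 9.64 ± 0.997 and 43.5 ± 1.48 CPM (SD, n = 3 each), and the lowest LPS library, at 42.4 CPM, was far above the highest PBS library, at 10.8 CPM. The log2 fold change was 2.17 (SE 0.06, adjusted p = 1.24e-15), the 95.2th percentile. Klf4 lies on chromosome 4 (55527143 to 55532466, minus strand), and no other annotated gene overlaps it. Its start region, shown above with 4 GC boxes, was 74.0% G and C.

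Klf6, an early-response factor that is strongly expressed in macrophages, carried most of the counts. It had 17067, 15870 and 17129 counts in PBS and 48634, 45091 and 48372 in LPS libraries. The level went from 360 ± 10.1 to 1417 ± 34.0 CPM (SD, n = 3 each), a gap much wider than the spread within either group. The log2 fold change was 1.98 (SE 0.04, adjusted p = 1.03e-18). Klf6 lies on chromosome 13 (5861482 to 5870394, plus strand).

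Klf2, which keeps T cells and endothelium quiescent and restrains NF-kB in myeloid cells, rose by less than its close relative Klf4. It had 924, 960 and 992 counts in PBS and 1268, 1346 and 1251 in LPS libraries, or 20.7 ± 1.14 and 38.6 ± 2.35 CPM (SD, n = 3 each). All LPS libraries were above all PBS libraries. The log2 fold change was 0.90 (SE 0.06, adjusted p = 9.45e-11), and its 95% interval from 0.78 to 1.01 included the criterion of 1. Without the TMM factors the change was 0.49 on the log2 scale. Klf2 lies on chromosome 8 (72319033 to 72321656, plus strand).

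Klf3, a CtBP-dependent repressor, had 2758, 2683 and 2907 counts in PBS and 2910, 2903 and 2971 in LPS libraries. These raw counts differ little, and the size of the rise depends on the scaling. In CPM the level was 60.1 ± 2.62 in PBS and 87.7 ± 1.16 in LPS libraries (SD, n = 3 each), with a log2 fold change of 0.54 (SE 0.04, adjusted p = 6.32e-10) that was 0.14 with scaling by library size alone. Within the Klf3 span on chromosome 5 (64803388 to 64832901, plus strand) lies C230096K16Rik, a transcript on the same strand with no exonic base in common with Klf3, whose start is 626 bp downstream of the start of Klf3. C230096K16Rik had 213, 289 and 226 counts in PBS and 405, 361 and 410 in LPS libraries. Its change was 1.16 on the log2 scale (SE 0.11, adjusted p = 2.58e-08), larger than that of Klf3 itself; the difference between the genes was not tested. Gm20033, which shares 404 exonic bp with Klf3 on the other strand, had between 17 and 34 counts per library and a log2 fold change of 0.47 (SE 0.29, adjusted p = 0.164).

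In the SIN3-binding branch, Klf11 fell most. Klf11, a TGF-beta-inducible repressor also known for its part in glucose metabolism, had 484, 524 and 562 counts in PBS and 154, 119 and 129 in LPS libraries. The level was 11.3 ± 1.04 CPM in PBS and 4.01 ± 0.508 CPM in LPS libraries (SD, n = 3 each), 2.82-fold lower. No LPS library came near the PBS range. The log2 fold change was -1.50 (SE 0.10, adjusted p = 4.32e-10), the 5.12th percentile of all tested genes. Klf11 lies on chromosome 12 (24651274 to 24662789, plus strand).

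Klf9, a gene induced by glucocorticoids and thyroid hormone, had 646, 689 and 741 counts in PBS and 333, 351 and 351 in LPS libraries. Its level was 15.0 ± 1.27 and 10.3 ± 0.416 CPM (SD, n = 3 each), with a log2 fold change of -0.53 (SE 0.08, adjusted p = 6.07e-06). Klf16, which competes with other factors for GC boxes, had 434, 455 and 449 counts in PBS and 230, 233 and 243 in LPS libraries, 9.64 ± 0.485 and 7.04 ± 0.165 CPM (SD, n = 3 each), a change of -0.45 on the log2 scale (SE 0.08, adjusted p = 6.92e-05). Both fell without overlap between the groups, and both stayed short of the criterion of 1 in size. With library size as the only scaling, Klf9 was at -0.94 and Klf16 at -0.86 on the log2 scale. Klf9 lies on chromosome 19 (23141226 to 23168134, plus strand) and Klf16 on chromosome 10 (80567124 to 80577321, minus strand).

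Klf10, an early TGF-beta response gene and the closest relative of Klf11, changed least of the 10 with TMM. It had 3720, 3465 and 3543 counts in PBS and 2277, 2086 and 2256 in LPS libraries. The level was 77.2 ± 0.800 and 66.0 ± 1.98 CPM (SD, n = 3 each), with a log2 fold change of -0.23 (SE 0.04, adjusted p = 2.71e-05). The LPS libraries, between 63.9 and 67.9 CPM, lay below the PBS libraries, between 76.7 and 78.1 CPM. Without the TMM factors the change was -0.63 on the log2 scale. Klf10 lies on chromosome 15 (38291463 to 38300706, minus strand).

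Klf13, known from T cells as an activator of Ccl5, was the exception among the 5 SIN3-binding genes examined. It had 4464, 4693 and 4769 counts in PBS and 4182, 4146 and 4036 in LPS libraries, so the raw counts were lower with LPS. After TMM scaling the level was 100.3 ± 5.70 CPM in PBS and 123.4 ± 4.35 CPM in LPS libraries (SD, n = 3 each), with a log2 fold change of 0.30 (SE 0.04, adjusted p = 5.64e-06). When only library size was used for scaling, the value was -0.11 (adjusted p = 0.0286), so the direction of Klf13 depends on the scaling. Relative to the median of all tested genes it was 0.31 under either scaling. A change of scaling moves all genes nearly alike, so this agreement does not settle the direction. Klf13 lies on chromosome 7 (63886351 to 63938915, minus strand).

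Per length of exons, the make-up of the family shifted toward Klf6. In PBS libraries Klf6 had 82.1 ± 2.30 CPM per kb (SD, n = 3), followed by Klf10 (18.5 ± 0.192), Klf13 (13.3 ± 0.757), Klf2 (11.2 ± 0.619) and Klf3 (5.35 ± 0.233). The remaining levels in PBS were between 2.20 ± 0.0888 CPM per kb for Klf7 and 3.60 ± 0.181 for Klf16; the libraries of Klf16 overlapped those of Klf4, and those of Klf4 overlapped those of Klf9, so these neighbours did not differ beyond their spread. In LPS libraries Klf6 had 323 ± 7.75 CPM per kb (SD, n = 3) and was followed by Klf2 (20.9 ± 1.27), Klf13 (16.4 ± 0.577), Klf10 (15.8 ± 0.475), Klf4 (14.3 ± 0.485) and Klf7 (11.6 ± 0.456). Among neighbours in this order, only Klf13 and Klf10 overlapped. Klf7 went from place 10 of the 10 to place 6, and Klf11 from place 9 to place 10, at 0.924 ± 0.117 CPM per kb. Klf6 made up 56.6% ± 0.985 of the summed CPM per kb of the 10 genes in PBS and 77.7% ± 0.514 in LPS libraries (SD, n = 3 each), a share that does not depend on the scaling between libraries. The share of Klf10 was 12.7% ± 0.411 in PBS and 3.80% ± 0.0467 in LPS libraries. With the longest transcript as the length, the share of Klf6 was 51.9% in PBS and 75.1% in LPS libraries, and the level of Klf3 was 11.5 CPM per kb in PBS, place 4 of the 10, and that of Klf10 was 21.7 CPM per kb in LPS, place 2. For Klf3, the annotated exons of 11243 bp are much longer than the longest transcript of 5221 bp.

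**Figure D3:**
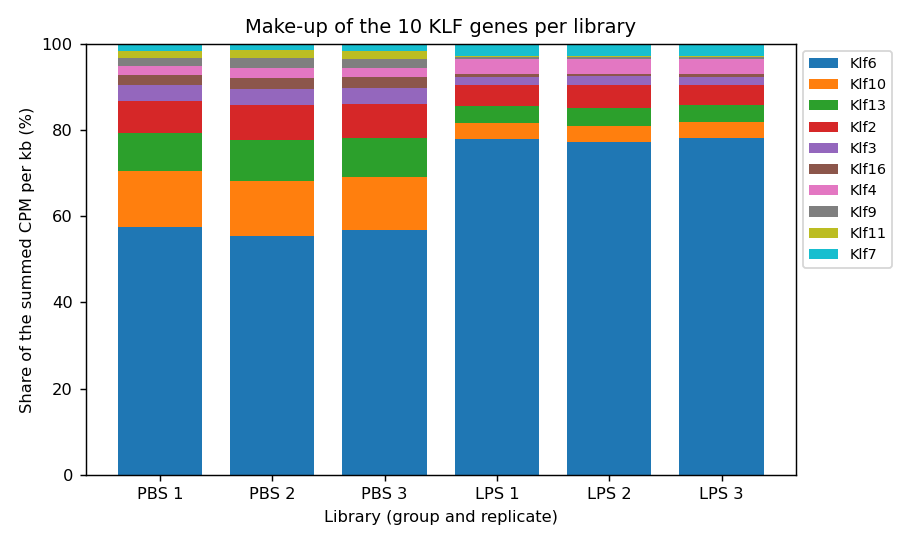
Share (%) of each KLF gene in the summed normalized CPM per kb of exon of the 10 genes, stacked for each of the 3 PBS and 3 LPS libraries. The Klf6 segment, at the bottom, averages 56.6% in PBS and 77.7% in LPS libraries, and the segments of Klf10 and Klf13 above it are narrower in LPS libraries.

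Ratios of related genes within a library are free of the scaling between libraries. The count ratio of Klf4 to Klf2 was 0.456, 0.506 and 0.433 in PBS and 1.20, 1.03 and 1.17 in LPS libraries, so that Klf4 went from below to above Klf2 in counts. The ratio of Klf10 to Klf11 was 7.69, 6.61 and 6.30 in PBS and 14.8, 17.5 and 17.5 in LPS libraries. For Klf13 to Klf9 it was 6.91, 6.81 and 6.44 in PBS and 12.6, 11.8 and 11.5 in LPS libraries. For Klf7 to Klf6 it was 0.0505, 0.0485 and 0.0496 in PBS and 0.0674, 0.0653 and 0.0663 in LPS libraries, the smallest shift of the 4 pairs (0.42 on the log2 scale, against 1.28 for Klf4 to Klf2). In each of the 4 pairs the groups did not overlap, and an exact two-sided permutation test gave p = 0.1 (adjusted over the 4 pairs, 0.1). Any pair without overlap gives this p, the smallest that 3 against 3 libraries allow. The pairs were chosen after values were seen, so the p adds nothing to the ratios themselves.

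**Figure D4:**
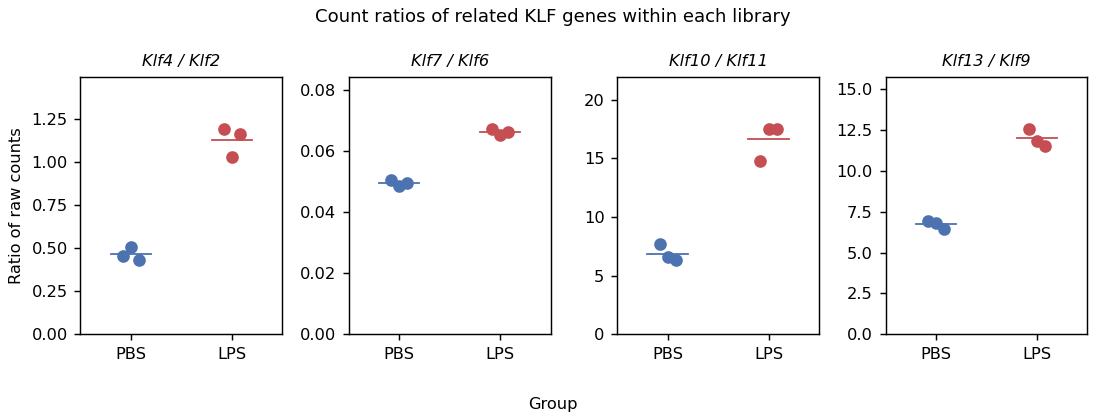
Ratio of raw counts of related KLF genes (linear axes from 0) in each PBS (blue) and LPS (red) library, with short lines at group means. In all 4 panels the 3 LPS points lie above the 3 PBS points.

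Of the 7 other Klf genes, 2 had enough counts to be tested. Klf5, an activator best known from epithelium and smooth muscle, had 2, 2 and 1 counts in PBS and 36, 44 and 38 in LPS libraries. It was at least 18.2-fold higher in LPS libraries than the floor of 3 counts per library in PBS. Klf5 passed the filter on low counts only through the LPS libraries, so its p is not given. Klf8, a CtBP-binding relative of Klf3, had a log2 fold change of 0.22 (SE 0.10, adjusted p = 0.0646), with a 95% interval from 0.01 to 0.43. Scaling by library size alone gave -0.19, and DESeq2's size factors gave 0.24, with which it passed the threshold (adjusted p = 0.0460). Klf1, Klf12 and Klf15 had at most 8 counts in any library, and Klf14 and Klf17 had 0 in all of them, which allows up to 3 counts per library.

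The SP factors share the zinc finger domain and the GC box with the KLF proteins. Sp2 had a log2 fold change of 1.01 (SE 0.07, adjusted p = 5.73e-10), at the edge of the criterion, and 0.60 with scaling by library size alone. Sp3, which can repress or activate, fell by 0.76 on the log2 scale (SE 0.05, adjusted p = 4.78e-10), and by 1.16 with scaling by library size alone. Sp1, the best known of the GC box factors, had a log2 fold change of -0.07 (SE 0.04, adjusted p = 0.0824), and with replicate number added to the model as a block it was -0.07 with an adjusted p of 0.0286. Without LPS replicate 3 the value of Sp1 was -0.10 (adjusted p = 0.0344), and with scaling by library size alone Sp1 was at -0.48. Upper quartile scaling gave -0.22 for Sp1 (adjusted p = 3.63e-05). Sp4 had a log2 fold change of 0.19 (SE 0.07, adjusted p = 0.0301), and -0.22 with scaling by library size alone. The call of Sp4 was lost without PBS replicate 1 (adjusted p = 0.0729), PBS replicate 2 (0.135), LPS replicate 1 (0.0544) or LPS replicate 3 (0.193), and with upper quartile scaling (0.587). Sp5 to Sp9 had at most 12 counts in any library and were not tested. Of the 16 other KLF and SP genes, 6 were thus tested. Sp2 was past both criteria as a rise, and none fell past them, against 10.5% and 10.4% of all tested genes. Klf5 is left out of this count, since it passed the filter only through the LPS libraries. Without PBS replicate 3 or LPS replicate 3, Sp2 was under the criterion of 1 as well.

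**Figure D5:**
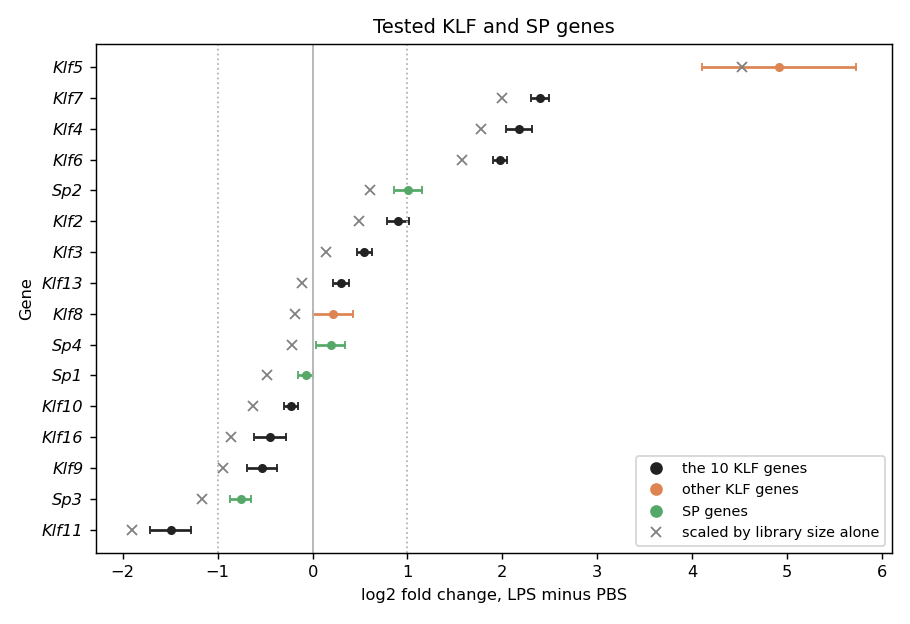
log2 fold change, LPS minus PBS, of the 16 tested KLF and SP genes (points, with bars for the 95% interval of edgeR's fit), and the same value with scaling by library size alone (grey crosses); dotted lines mark 1 and -1. Klf13, Klf8 and Sp4 lie above 0 with TMM and below 0 with library size alone, while Klf7, Klf4, Klf6 and Klf11 stay beyond the dotted lines under both scalings. Klf5 is drawn, but it passed the filter on low counts only through the LPS libraries, so its point and interval are not used.

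The cofactors that KLF proteins recruit were examined next. None of 9 cofactor genes passed both criteria, while 5 rose and 1 fell by the adjusted p alone, against 32.9% and 34.9% of all tested genes. The 2 values farthest from 0 were those of Crebbp, the acetyltransferase CBP, at 0.47 (SE 0.03, adjusted p = 3.20e-10), and of Kat2b at 0.43 (SE 0.04, adjusted p = 1.25e-08), both on the log2 scale. Scaling by library size alone moved the median log2 fold change of all tested genes from -0.01 to -0.42. Rises of this size therefore depend on the scaling. Ep300, the related acetyltransferase p300, had -0.24 (SE 0.03, adjusted p = 3.63e-06). Of 4 genes of ubiquitin ligases described for the turnover of KLF proteins, Vhl fell past both criteria, which 10.4% of all tested genes did (25.1 ± 0.545 to 11.6 ± 0.203 CPM, SD, n = 3 each, log2 fold change -1.12). Of the 7 genes of the ERK5-MEF2 route to Klf2 and Klf4, 1 fell past both criteria, against 10.4% of all tested genes. It was Mapk7, which encodes ERK5 itself, and it went from 31.6 ± 0.576 to 13.8 ± 0.833 CPM (SD, n = 3 each, log2 fold change -1.20, SE 0.06, adjusted p = 1.29e-12). By the adjusted p alone 4 genes of that route rose, against 32.9% of all tested genes, and 1 of them was Mef2d (log2 fold change 0.95, SE 0.04). The size of these rises depends on the scaling as well.

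Of 12 genes described as targets of KLF factors in other cells, 11 were tested, 6 rose past both criteria and none fell, against 10.5% and 10.4% of all tested genes. The median log2 fold change of the 11 was 1.43, against -0.01 for all tested genes. The list was chosen with earlier results of these data known, so this contrast is only a description. Thbd, thrombomodulin, a target of Klf2 and Klf4 in endothelium, rose from 12.5 ± 0.783 to 33.7 ± 1.74 CPM (SD, n = 3 each). S1pr1, the sphingosine phosphate receptor controlled by Klf2 in T cells, rose from 39.3 ± 0.972 to 120.4 ± 2.96 CPM (SD, n = 3 each). Cdkn1a, the cell cycle inhibitor p21, had a log2 fold change of 3.99, Zc3h12a, the RNase Regnase-1, 3.59, Ccl5, a chemokine gene, 4.61, and Smad7, an inhibitor of TGF-beta signalling, 2.56. These 6 genes are also known to respond to other signals that act in macrophages, and the part of any KLF factor in their values was not tested. Itgb7, an integrin subunit that Klf2 controls in T cells, had a log2 fold change of 0.08 (adjusted p = 0.269). Arg1 had at most 12 counts in any library and was not tested.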

How the data were processed

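Total RNA of BMDMs was sequenced as read pairs from 6 stranded libraries. Per the labels and the study's methods, the authors aligned reads to GRCm38 with HISAT2 2.1.0, processed alignments with SAMtools 1.17 and deposited raw gene counts made with featureCounts 2.0.0; the annotation release, strand setting and handling of multi-mapping reads are not given in the sources used here. Strand setting bears on genes that overlap on opposite strands.

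Symbols, coordinates (counted from 1) and exon lengths came from GENCODE M21 on GRCm38, which matched 55154 of the 55335 rows. Genes were fitted with edgeR 4.0.16 in R 4.3.3 (filterByExpr, TMM, quasi-likelihood test, Benjamini-Hochberg over all 15687 tested genes). "Rose" and "fell" mean an adjusted p under 0.05. Standard errors were derived from the F statistic. Start regions came from RefSeq on GRCm38.p6. A floor of 3 counts was 0.0630 to 0.0919 CPM and covers counting error only.

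The members and lists were chosen with earlier results of these data known, and the related pairs and the text's named genes outside the lists were chosen after values were seen. Named were all KLF and SP genes, and overlapping genes with a mean of 10 counts or more. Genes past both criteria in the cofactor, turnover, ERK5-MEF2 and target lists (or their 2 largest changes) were also named. Of the marker lists, genes at or under 3 counts in every library and defining macrophage markers were named. Ep300, Mef2d, Itgb7, Arg1, Cdh5, Xcr1, Gm26649, Tnf and the start region of Klf2 were added. Some listed genes are not reported here by name. Alternatives were other scalings, filters and tests (DESeq2 1.42.0, limma 3.58.1), a replicate block and leaving out libraries.

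The labels give replicates the same numbers in both groups and call them batches, which pairs the libraries. The main fit did not use this pairing, and a fit with the replicate number as a block is described in the last section. Across genes, the departures from group means of libraries with the same number correlated at -0.0139, 0.0822 and 0.0387. For libraries with different numbers, the correlations lay between -0.0817 and 0.0446. On simulated counts with 200 genes changed by 2 on the log2 scale, the edgeR step tested 15224 genes and recovered 196. Those counts had far fewer changed genes than these data, with directions drawn at random, so the recovery does not bear on the choice of scaling.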

Additional observations from a re-analysis of the deposited data

How the results depend on the processing

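Across the 16 other fits, 3 KLF genes rose and 1 fell past both criteria in each. All 10 KLF genes had an adjusted p under 0.05, except when edgeR tested each change against a threshold of 1 on the log2 scale, where 4 did. Klf7 ranged from 1.99 to 2.43, Klf4 from 1.77 to 2.26, Klf6 from 1.57 to 2.00 and Klf11 from -1.90 to -1.43 on the log2 scale. With scaling by library size alone, Klf2 was at 0.49, Klf3 at 0.14, Klf9 at -0.94, Klf10 at -0.63 and Klf16 at -0.86. Leaving out each library in turn gave 0.85 to 0.93 for Klf2, 0.25 to 0.32 for Klf13 and -0.25 to -0.20 for Klf10. With scaling by library size alone, Klf13 (-0.11), Klf8 (-0.19) and Sp4 (-0.22) reversed, and Sp3 was lower past both criteria. Sp2 was higher past both criteria with TMM, at 1.01. It was not with library size alone (0.60), upper quartile scaling (0.87), no filter on low counts (0.98) or a minimum of 10 counts in every library (0.99). Nor was it without PBS replicate 3 (0.99) or LPS replicate 3 (0.97), or with the test against that threshold. Klf5 is left out of this comparison, since it passed the filter only through the LPS libraries. The test against that threshold left 0 of the turnover genes lower. Over all genes, falls past both criteria were 1624, but 2964 with scaling by library size alone, 1027 with the minimum of 10 counts and 922 with the test against the threshold. With the replicate block, the log2 fold change of Klf7 was 2.40 and that of Klf2 0.90, and apart from Sp1 it changed no call among the KLF and SP genes. Depth limits Klf1, Klf12, Klf14, Klf15, Klf17 and Sp5 to Sp9, whose levels at 1 h could not be compared.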
